A study of Arabidopsis thaliana with 28 samples.

Results

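The distal regions open in every library are 1816 stretches of the Arabidopsis thaliana genome that lay away from protein-coding genes and carried a peak of Tn5 accessibility in each of 16 ATAC-seq libraries. Overlapping peaks of the 16 libraries were merged into 37830 regions, of which 16852 held a peak in all 16. Of these 16852, the 1816 members (10.8%) had their midpoint over 1 kb from every protein-coding gene and lay outside windows of 3 or 3.5 Mb around the 5 centromeres. Another 3752 distal regions outside those windows were open in fewer than 16 libraries, so the members were 32.6% of 5568 such regions. The members were thus chosen by the presence of a peak in each library and by position, and neither is a result.

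The study compared accessible chromatin with and without the synthetic cytokinin benzyl adenine (BA) in roots and shoots. Wild-type (Col-0) roots gave 4 control and 4 BA libraries, Col-0 shoots 2 and 2, and roots of the arr1,10,12 mutant 2 and 2, all called biological replicates by the series text. Controls received the vehicle and BA was given at 5 µM, each for 45 min in liquid MS medium, and nuclei were stained with DAPI and sorted before tagging with Tn5. Plant age and the mutant's alleles are not given in the sources used here, and 12 further samples, of RNA, were not analysed here.

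Cytokinin is sensed by histidine kinases and passed through phosphotransfer proteins to nuclear response regulators. Type-B regulators such as ARR1, ARR10 and ARR12 bind DNA and activate cytokinin targets, among them the type-A regulators, which dampen the signal. Open chromatin in Arabidopsis lies mostly at promoters just upstream of genes, and open stretches farther away are candidate positions of distal regulatory elements, unannotated transcripts or non-coding RNA genes.

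The name "distal" held for the midpoints but not for the whole of each region. Of the 1816 members, 485 (26.7%) overlapped a protein-coding gene at an edge and 488 (26.9%) came within 1 kb of one. The other 843 members (46.4%) lay over 1 kb from every gene at both edges and are called strictly distal here. A stretch covered in all 16 libraries existed in 1788 members, and the widest such stretch had its midpoint over 1 kb from a gene in 1434 of them (80.2%) and inside a gene body in 33. In the remaining 28 members each library had a peak but no base was covered in all 16. Members beside MYB45, MLP328, RTFL2, CRF6 and IPT5, named below, were among these 28.

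The members nearest to the 1 kb limit had midpoints 1001 bp from AT4G02100, AT5G05130 and AT5G24430, and the regions just outside it had midpoints 1000 bp from MYB85 and 999 bp from AT2G02620 and CLE42. At the limit of 16 libraries, members beside CER1, ECA3 and PGP10 had 200 bp of peak in 1 shoot library. Regions beside GER2, AT3G16180 and AT5G24180 were left out for want of a peak in 1 shoot library although each of the other 15 libraries covered at least 881, 824 and 543 bp. Of the 205 distal regions open in 15 libraries, 52 lacked a peak in WT shoots BA replicate 1, 25 in WT shoots control replicate 1, 24 in WT shoots control replicate 2 and 19 in arr1,10,12 roots control replicate 1. The other 12 libraries lacked between 1 and 17 each.

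Members were wide. Their merged width had a median of 1518 bp and ran from 309 to 21522 bp, beside a median of 1192.5 bp for the other 15036 regions open in all 16 libraries and 377 bp for distal regions open in fewer. At least 2000 bp were reached by 723 members (39.8%) and by 24.2% of the other open regions, and at least 10000 bp by 16 members (0.881%) and by 0.226%. The part covered in all 16 libraries had a median of 531 bp, or 41.5% of the width. Width was part of how regions were merged and is given as a description.

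**Figure D1:**
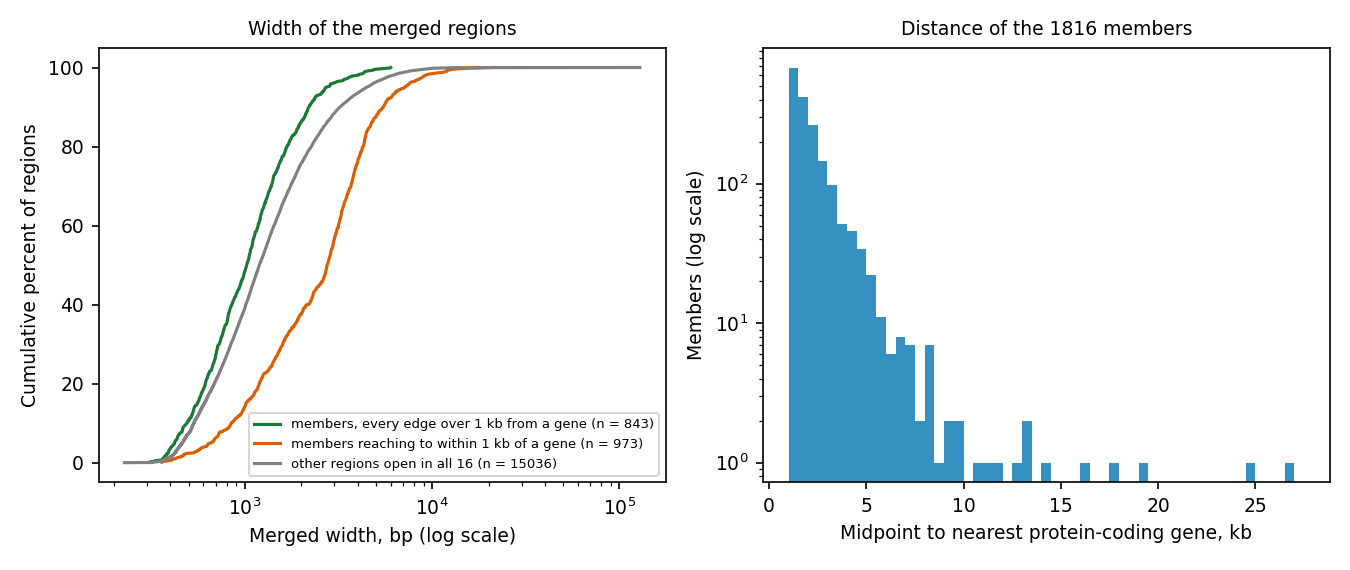
Left, cumulative percent of regions (y) by merged width in bp on a log axis (x) for the 843 strictly distal members, the 973 members that reach to within 1 kb of a gene, and the 15036 other regions open in all 16 libraries. Right, number of members (y, log axis) by distance in kb of the midpoint from the nearest protein-coding gene (x, bins of 0.5 kb). The members that reach genes are the wide ones, and 80 of the 1816 members lie over 5 kb from a gene.

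The 10 widest members each overlapped a gene, and some were wider than the space between genes that held their midpoint. That space was 11945 bp at the widest member and 4401 bp at the PYK10 member. The widest, 21522 bp at chromosome 1 4523589-4545110 (TAIR10), filled the space between GATL3, a galacturonosyltransferase-like gene, and RAV1, which encodes a DNA-binding protein of the RAV family. Each of the 16 libraries covered between 19788 and 21249 bp of it. The members of 17716 bp beside AT1G21010 and 13186 bp beside AT1G78260 were also covered for most of their length in every library. The member of 13997 bp beside PYK10 (chromosome 3 2837831-2851827), a root beta-glucosidase gene of the ER bodies, was covered for 13032 to 13812 bp in the 8 WT root libraries. The 4 shoot libraries covered 2671, 3339, 1678 and 2965 bp of that region. Root and shoot libraries therefore did not overlap there, and the 4 arr1,10,12 libraries, at 13185 to 13424 bp, lay within the range of the WT roots. The member of 12542 bp beside HA2, a plasma membrane proton pump gene, had 10591 to 12360 bp covered in WT roots and 5451 to 6547 bp in shoots.

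The member of 11914 bp beside AT5G39160 differed between libraries of 1 kind. WT root control replicates 1 to 4 covered 10995, 4084, 5176 and 4384 bp of it. The BA libraries of WT roots covered 11641, 3266, 4086 and 4193 bp. Replicate 1 was the high library in both treatments, and in shoots too replicate 1 covered more, with 7364 against 490 bp in control and 11535 against 3258 bp under BA.

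Distance to the nearest gene had a median of 1746.5 bp, and 719 members lay over 2 kb, 309 over 3 kb, 80 over 5 kb and 12 over 10 kb away. The farthest midpoint, 26658 bp from AT5G28237, belonged to a region of 1056 bp at chromosome 5 10239728-10240783. It was covered for 833 to 976 bp in WT roots and for 481 to 952 bp in shoots, so that the ranges overlapped. A second member, of 518 bp, lay beside it with its midpoint 24903 bp from the same gene. Of the 10 farthest members, the one 19349 bp from AT3G29645 was the only one over 1 log2 unit lower in shoots, with 1290 to 1876 bp in WT roots and 543, 309, 680 and 409 bp in the shoot libraries. The one 11677 bp from AT5G35405 stood the other way, with 455 to 862 bp in WT roots and 1383, 1160, 1130 and 1253 bp in shoots.

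The members fell into 1488 intergenic spaces between protein-coding genes, with a median length of 5008.5 bp. A single member lay in 1248 spaces, 2 in 178, 3 in 46 and 4 or more in 16. The most, 6, lay between NCED3, the gene of a rate-limiting enzyme of abscisic acid synthesis, and CID9, and 6 more between AT1G61660 and AT1G61667. Spaces with 5 members included those between GRF2 and ANT, both genes of growth-related transcription factors, and between DWF4, a rate-limiting gene of brassinosteroid synthesis, and U1-70K. These crowded spaces were chosen after their counts were seen. The members had 1620 distinct nearest genes.

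The rule used protein-coding genes alone, but it still bears on other gene classes. A midpoint over 1 kb from coding genes is less likely to lie near a gene that overlaps one. The shares that follow are thus descriptions and are not free of the rule. A non-coding gene or pseudogene lay within 1 kb of the midpoint in 490 members (27.0%), beside 18.1% of all regions open in all 16 libraries. Annotated lncRNA genes lay that near in 280 members (15.4%, beside 9.27%), pseudogenes in 89 (4.9%, beside 1.94%) and miRNA genes in 23 (1.27%, beside 0.676%). The members' share was the lower one for tRNA genes (18 members or 0.991%, beside 2.42%), snoRNA genes (0.606% beside 0.748%), snRNA genes (0.220% beside 0.291%), antisense RNA genes (0% beside 0.267%) and rRNA genes (0% beside 0.0119%). No test was made of these shares.

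Among classes with few such members, the midpoint lay inside MIR857, the U2.6 snRNA gene, the snoRNA genes AT2G06855, AT3G24612 and AT5G07095, and the tRNA genes AT1G69130, AT3G28685 and AT5G35605. Members overlapped 21 annotated miRNA genes, and those described next were chosen after their values were seen. MIR159a and MIR159b, whose product targets GAMYB-like genes, lay in members that differed little between organs. The MIR159a member had 3756 ± 158 bp in WT roots and 3386 ± 111 bp in shoots (SD, n = 8 and 4). Its shoot libraries, at 3257 to 3524 bp, all lay below its WT root libraries, at 3563 to 4024 bp. The log2 change there was −0.15 without centring and 0.11 with it. MIR173, which starts the production of some trans-acting siRNAs, lay in a member with 1302.5 ± 120 bp in WT roots and 1218.5 ± 72.3 bp in shoots. Neither the MIR159a nor the MIR173 member was called between organs by limma (adjusted p = 0.227 and 0.109).

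Other members over miRNA genes were called between organs. The member over MIR167c (chromosome 3 1306695-1308734), one of the genes for the miRNA that targets ARF6 and ARF8, was covered for 1207 to 1964 bp in WT roots and for 301, 300, 200 and 361 bp in shoots. Root and shoot libraries did not overlap, and the log2 change was −2.22 ± 0.18 (SE; limma adjusted p = 5.22e-07). The member over MIR167d (chromosome 1 11132744-11140323), of the same family, went the other way, with 2704 to 3816 bp in WT roots and 6462, 5706, 5915 and 6775 bp in shoots (log2 change 1.22). The member over MIR393a, whose product targets the auxin receptor TIR1 and its relatives, was covered for 1011 ± 140 bp in WT roots and 473 ± 48.9 bp in shoots, without overlap. MIR390a, which triggers cleavage of TAS3 transcripts, and the TAS3 gene itself both lay in members lower in shoots, by 0.56 and 0.22 on the log2 scale (limma adjusted p = 0.00484 and 0.0329). In all, 11 of the 21 members over miRNA genes (52.4%) were called between organs, beside 44.6% of all regions and 58.1% of all members. Of these 11, 6 were higher and 5 lower in shoots. Without centring 10 of the 21 (47.6%) were called, 2 higher and 8 lower, beside 7351 of 16852 regions and 1025 of 1816 members.

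Depth per library is unknown, since the peak lists carry no read numbers, so no counting interval can be given. The libraries held 19.7 to 28.7 Mb of peaks in all. The tissue labels were checked on gene bodies with 1 kb on either side, as the mean covered percent over the genes of a list. For 11 leaf and shoot genes this mean was 45.5 to 60.7% in the shoot libraries and 8.51 to 14.4% in the root libraries. For 9 root genes it was 13.1 to 14.2% in shoots and 25.4 to 37.2% in roots. Not every gene told the organs apart. STM was covered in no library, and PLT1 in no shoot library and few root libraries. At RBCS1A a root library reached 84.7% and a shoot library had 84.1%. Root and shoot libraries also overlapped at LHCB1.1, LHCB1.2 and COBL9, and did not overlap at the remaining genes. The genotype cannot be checked from peaks.

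Covered length, the number of a region's base pairs under a peak of a library, was the measure compared between groups. Its median over the 1816 members was 1090.5, 1283, 1222 and 1182 bp in the WT root control libraries. It was 1144.5, 1197, 1021.5 and 1116.5 bp under BA. In shoots it was 940 and 901 bp in control and 855.5 and 972.5 bp under BA, and in arr1,10,12 roots 1002 and 1079 bp in control and 1032.5 and 1039 bp under BA. The 4 shoot libraries were all below the 12 root libraries, while control and BA libraries overlapped in each kind of sample. The ratio of this median to that of the other open regions lay between 1.14 and 1.5 in all 16 libraries, and members held 10.9 to 13.0% of a library's covered length.

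**Figure D2:**
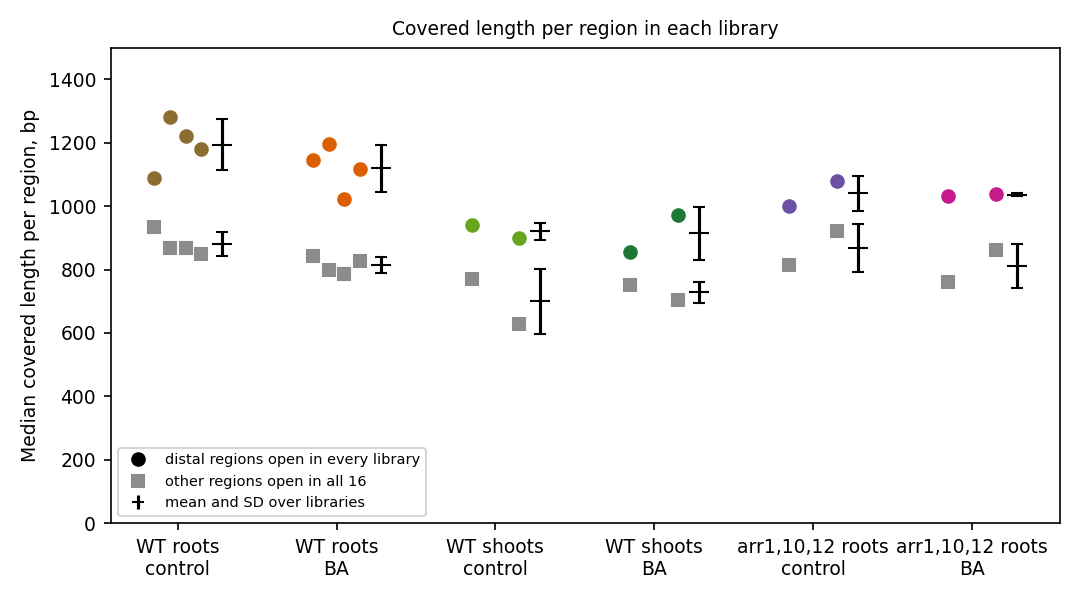
Median covered length per region in bp (y) in each library of the 6 groups (x), for the 1816 members (circles) and the 15036 other regions open in all 16 libraries (grey squares); black marks give the mean and SD over the libraries of a group. Members lie above the other regions in every library, and the 4 shoot libraries lie lowest for the members; for the other regions arr1,10,12 roots BA replicate 1, at 762 bp, lies within the range of the shoot libraries.

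For tests, covered lengths of all 16852 regions open in all 16 libraries were put on a log2 scale, each library was centred on its median, and limma was fitted to the 6 groups with Benjamini-Hochberg adjustment over the 16852 regions. A region was called at an adjusted p under 0.05. The fit took all libraries as independent, although same-numbered control and BA libraries deviated together in WT roots (correlation 0.18 to 0.441). Adjusted p and SE for organ and genotype can therefore be too small, and n counts libraries, not independent replicates. Since every member has a peak in every library and the narrowest peaks were mostly 200 bp, a member cannot fall below about that length, and a region that closed in any library is not a member.

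Most calls were between organs. Between WT shoots and WT roots, 1055 of the 1816 members (58.1%) were called, where 44.6% of all regions were. Of these, 547 (30.1%, background 26.4%) were higher and 508 (28%, background 18.2%) lower in shoots. A log2 change over 1 in size was reached by 276 members (15.2%, background 7.74%), 86 higher and 190 lower, and in 261 of the 276 (94.6%, beside 91.6% of 1305 such regions in all) the 8 root and 4 shoot libraries did not overlap. A change of that size was reached by 12.3% of strictly distal members and 17.7% of those that reach genes, the wider ones. The background was not matched for width. The split between directions rested on the centring: without it, every region shifted by −0.26 log2, to a median over all regions of −0.17, and 228 members were higher and 797 lower. Called members were 474 of the 843 strictly distal ones, 303 higher and 171 lower. Without centring 400 of these 843 were called, 136 higher and 264 lower. Of the 973 that reach genes, 581 were called, 244 higher and 337 lower.

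**Figure D3:**
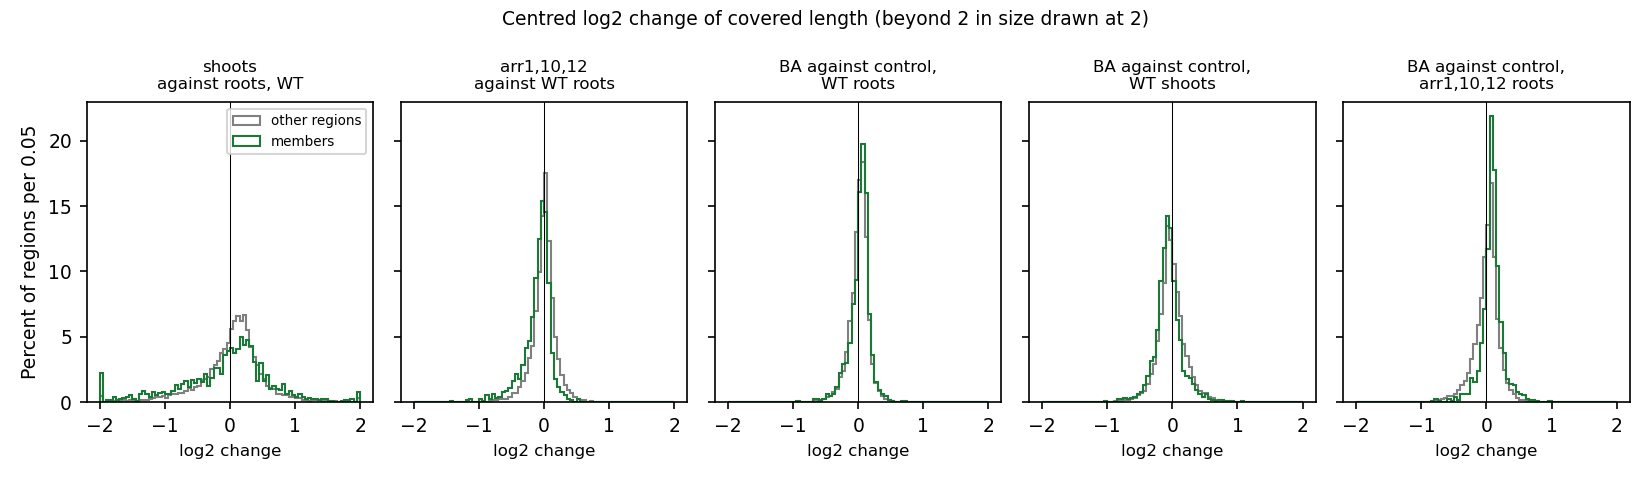
Distribution of the centred log2 change of covered length (x; values beyond 2 in size are drawn at 2) as percent of regions per 0.05 log2 (y), for members (green) and the other regions open in all 16 libraries (grey), in 5 comparisons. Members spread wider than other regions between shoots and roots and lean to the left in arr1,10,12 roots, and all 3 BA comparisons are narrow.

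The members highest in shoots relative to roots lay beside AT5G52890, PEP, XTH16, MYB64 and AT1G12080. The region of 4082 bp beside PEP (chromosome 4 13193556-13197637), whose product is an RNA-binding protein with roles in the shoot, was covered for 460 to 704 bp (median 549) in WT roots. The 4 shoot libraries covered 4067, 3638, 3773 and 3792 bp of it. The groups were far apart, with a log2 change of 3.05 ± 0.09 (SE; limma adjusted p = 4.44e-11). The region beside XTH16 (chromosome 3 8546404-8550786), a gene of a cell wall xyloglucan enzyme, had 307 to 1061 bp in WT roots and 4195, 3736, 3391 and 3738 bp in shoots (log2 change 3.00 ± 0.32). The root libraries varied by over 3-fold among themselves there, but none came near a shoot library. The region of 4253 bp beside AT5G52890 had 305 to 803 bp in WT roots and 3031 to 4170 bp in shoots (log2 change 3.14 ± 0.15).

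The members lowest in shoots lay beside MYB45, AT2G41670, MLP328, AT5G38030 and AT5G54790. The region of 4015 bp beside MYB45 (chromosome 3 18136018-18140032), a gene of an R2R3 MYB transcription factor, had 3280 to 3826 bp (median 3622) in WT roots. In shoots it had 200, 450, 312 and 250 bp. Roots and shoots did not overlap, and the log2 change was −3.38 ± 0.19 (SE; limma adjusted p = 1.29e-08). The region beside AT2G41670 (chromosome 2 17370894-17374264), whose other flanking gene is MIZ1, required for root hydrotropism, had 3104 ± 114 bp in WT roots, 3006.5 ± 58.8 bp in arr1,10,12 roots and 264 ± 49.0 bp in shoots (SD, n = 8, 4 and 4). The region of 3284 bp beside MLP328, a major latex protein-like gene, had 1659 to 3032 bp in WT roots and 200 to 250 bp in shoots. Neither the MYB45 nor the MLP328 region had a base covered in all 16 libraries.

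These regions all touched or neared a gene except at their middle, so the strictly distal members with the largest changes are given as well, chosen after their values were seen. The region of 3200 bp between BOP2 and AT2G41380 (chromosome 2 17243518-17246717) had both edges at least 2909 bp from a gene. BOP2 encodes a co-regulator that patterns leaf bases and boundaries in the shoot. The region was covered for 2793 to 3200 bp in WT roots and 2770 to 3039 bp in arr1,10,12 roots. In the shoot libraries it had 200, 250, 463 and 514 bp, far below every root library (log2 change −2.93 ± 0.10; limma adjusted p = 2.22e-10). The region of 2140 bp beside RTFL2, a gene of small peptides of the ROTUNDIFOLIA family, had 1735 to 2098 bp in WT roots and 200 to 590 bp in shoots. No base of the RTFL2 region was covered in all 16 libraries. In the other direction, the region of 1189 bp beside AT4G01460 (chromosome 4 615381-616569), with edges at least 4122 bp from a gene, had 301 to 362 bp in WT roots and 1177, 1077, 1131 and 1184 bp in shoots. Libraries of 1 organ agreed closely there, and the log2 change was 2.02 ± 0.09 (SE; limma adjusted p = 1.70e-09).

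**Figure D4:**
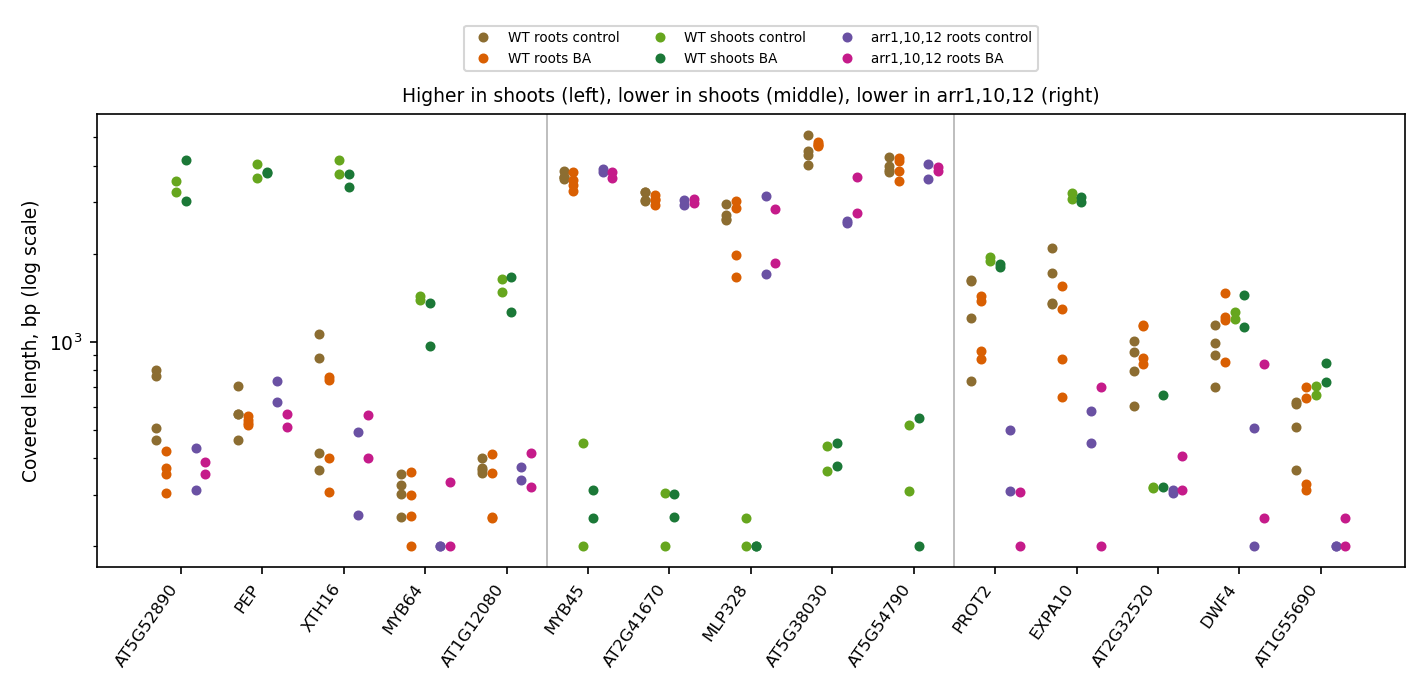
Covered length in bp (y, log axis) in each of the 16 libraries for the 5 members highest in shoots, the 5 lowest in shoots and the 5 lowest in arr1,10,12 roots, named by their nearest gene (x); each point is a library, coloured by group. Shoot libraries stand apart from all root libraries in the left and middle sets, while in the right set the arr1,10,12 libraries lie low and, except beside AT2G32520, the shoot libraries lie high.

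Fewer members differed by genotype. Between arr1,10,12 roots and WT roots, 36 members (1.98%) were called, where 0.777% of all regions were, and all 36 were lower in the mutant (background 0.671% lower and 0.107% higher). Of the 36, 8 were over 1 log2 unit lower (background 0.16%), 14 were strictly distal, and in 27 (75%, beside 65.6% of all 131 called regions) the 8 WT and 4 mutant libraries did not overlap. With the replicate number as a block, 73 members (4.02%) were called, 4 of them higher, beside 2.74% of all regions, and 31 of the 36 were among them. That block was 1 effect per number, shared by WT roots, shoots and mutant. The labels do not say that a number is 1 batch across them, and only WT roots have replicates 3 and 4. Over all members the median log2 change was −0.06, beside 0.01 for the other open regions, and centring on the members' own median left 20 called, 1 of them higher. The count also rested on single libraries: it was 17 without WT roots BA replicate 1, WT roots BA replicate 2 or arr1,10,12 roots control replicate 1, 19, 23 and 22 without WT roots control replicates 2, 3 and 4, and 54, of which 1 was higher, without WT roots control replicate 1.

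The strongest change lay between PROT2, a proline transporter gene, and MYB109, a gene of an R2R3 MYB protein. The strictly distal region of 2086 bp there (chromosome 3 20689356-20691441), 3992 bp or more from a gene, was covered for 737, 1619, 1625 and 1203 bp in WT root control libraries and for 1381, 1434, 870 and 931 bp under BA. The mutant libraries covered 500 and 308 bp in control and 306 and 200 bp under BA. Every mutant library was below every WT root library, and the log2 change was −1.89 ± 0.25 (SE; limma adjusted p = 0.00242). A second member of that space, 4312 bp wide and named for MYB109 (chromosome 3 20683614-20687925), was also lower, with 3332.5 ± 234 bp in WT roots and 1802 ± 229.8 bp in the mutant (SD, n = 8 and 4; log2 change −0.87 ± 0.08; limma adjusted p = 0.000347). In WT shoots these regions were open more widely than in WT roots, with 1872.5 ± 66.5 and 3814 bp on average.

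The next largest changes lay beside EXPA10, AT2G32520, DWF4 and AT1G55690. At AT2G32520 the WT root libraries had 601 to 1141 bp and the mutant libraries 303, 311, 407 and 311 bp, without overlap (log2 change −1.42 ± 0.19; limma adjusted p = 0.00340). At EXPA10, a gene of a wall-loosening alpha-expansin, the WT root libraries had 650 to 2094 bp and the mutant libraries 451, 580, 200 and 702 bp. The highest mutant library was above the lowest WT library, and the limma adjusted p of 0.0238 rose above 0.05 when any of 4 libraries was left out. At DWF4, the brassinosteroid gene named above, WT roots had 699 to 1471 bp and the mutant 200, 509, 250 and 838 bp. These ranges too overlapped, and the limma adjusted p of 0.0357 became 0.0615 without centring and lay between 0.0532 and 0.162 when any of 8 libraries was left out. At AT1G55690 (chromosome 1 20816004-20816902) the mutant libraries had 200, 200, 250 and 200 bp and the WT roots 311 to 699 bp. That call was lost when any of 11 libraries was left out (limma adjusted p 0.0510 to 0.143). The second member of that space, named for AT1G55700, was called as well, with 772 ± 102 bp in WT roots and 358 ± 138 bp in the mutant (limma adjusted p = 0.00187).

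**Figure D5:**
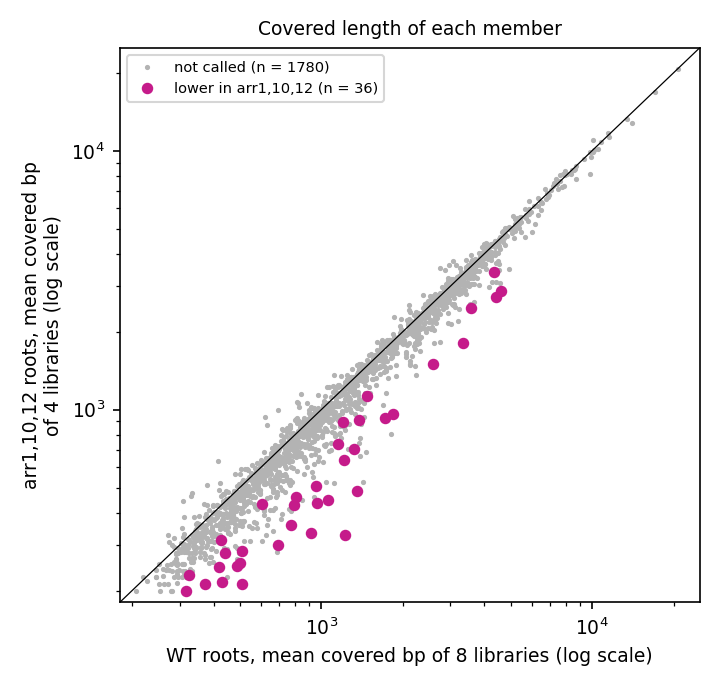
Mean covered length in bp of each of the 1816 members in arr1,10,12 roots (y, 4 libraries, log axis) against WT roots (x, 8 libraries, log axis), with the line of equal length; magenta points are the 36 called members. All 36 lie below the line.

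Other called members stood near hormone and growth genes, a selection made after the list was seen. The region beside ACS9, a gene of an ethylene-synthesis enzyme, had 968 ± 148 bp in WT roots and 436 ± 54.5 bp in the mutant, without overlap (SD, n = 8 and 4; log2 change −1.12 ± 0.09; limma adjusted p = 6.52e-05). The region 7441 bp from GA2OX2, a gibberellin-inactivating enzyme gene, had 429 ± 67.7 and 216 ± 32.0 bp. The region 3715 bp from EXPA1, another expansin gene, had 959 ± 214 and 507 ± 99.2 bp, and a called member named for AT1G69526 lay in the same space. The region beside KRP2, a gene of a cyclin-dependent kinase inhibitor, had 1157.5 ± 106 and 735 ± 122 bp, a call lost with the replicate block (limma adjusted p = 0.0553). Of the 36 called members, 10 shared their intergenic space with another called one, and 12 had a mutant library at 200 bp.

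BA changed few members past the test. In WT roots 0 of 1816 were called, beside 3 of 16852 regions (0.0178%), and 69 members had an unadjusted limma p under 0.05. In arr1,10,12 roots 0 members and 0 regions (0%) were called, with 47 members under 0.05 unadjusted. In WT shoots 4 members (0.220%) were called, beside 0.113% of all regions, 3 of them higher (background 0.0712%) and 1 lower (background 0.0415%). Between BA effects, 0 members differed between shoots and WT roots (background 0.0237%, 84 under 0.05 unadjusted) and 0 between arr1,10,12 and WT roots (background 0%, 37 unadjusted). In simulated data the same fit found 92 of 100 regions given a log2 change of 1 in WT roots and 40 of 100 given 0.5, and 67 and 8 of 100 in shoots. The simulated libraries were independent and had no lower limit of length, and the changed regions were drawn from all 16852. These rates were not measured on members and may be lower there.

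The 4 members called in shoots lay beside AT3G18940, BOP2, ATCTH and UCNL, each with 2 libraries a group. At AT3G18940 (chromosome 3 6530190-6534514) control libraries had 563 and 918 bp and BA libraries 1883 and 1984 bp (log2 change 1.37 ± 0.22; limma adjusted p = 0.0247). At BOP2, in the region described above, control libraries had 200 and 250 bp and BA libraries 463 and 514 bp (log2 change 1.06 ± 0.17; limma adjusted p = 0.0247). BA shoots thus exceeded control shoots at both, while all of them stayed far below the root libraries. At ATCTH, a gene of a tandem zinc finger protein, 410 and 359 bp stood against 674 and 806 bp (log2 change 0.88 ± 0.14; limma adjusted p = 0.0280). The region 6330 bp from UCNL (chromosome 3 7291887-7293657) was lower, with 931 and 789 bp in control and 200 and 316 bp under BA (log2 change −1.83 ± 0.23; limma adjusted p = 0.00614). In the same shoot libraries an adjoining member named for PLT1, a root stem cell regulator, had 375 and 320 bp in control and 316 and 419 bp under BA. When covered percent replaced log2 length, 0 of the 4 were called. Leaving out a shoot library left 1 in its group, and the direction over members then turned with the library left out. The median log2 change of members was −0.06 with all libraries. It was −0.19 without control replicate 1 and −0.16 without BA replicate 2. Without control replicate 2 and BA replicate 1 it was 0.05 and 0.04.

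The authors deposited a list of 760 differential regions for roots and one of 685 for shoots, with no direction or p. The root list touched 113 members (6.22%, beside 2.62% of all regions open in all 16 libraries), the shoot list 86 (4.74%, beside 2.78%), and both lists 28 (1.54%, beside 0.516%). Per kb of merged width, the root list filled 17.6 bp of members and 6.06 bp of the other open regions outside the windows, and the shoot list 10.6 and 5.92 bp. Of the strictly distal members, 28 (3.32%) touched the root list and 17 (2.02%) the shoot list, the second share being below that of all regions. The lists were made from these same libraries, so the directions that follow are no independent evidence. Of 199 listed root pieces inside members, 74 (37.2%, beside 38.9% of the whole root list) were covered more under BA, 16 less, and 109 fully in both groups. Of 123 shoot pieces, 57 (46.3%, beside 45% of the whole shoot list) were covered more, 3 less, and 63 fully in both.

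The 5 widest members touched by each list included ARR4, IAA2, PYK10, WRKY48 and AT4G25410. The region beside AT4G25410 (chromosome 4 12978727-12990158), a bHLH gene, was 11432 bp wide with its midpoint in a space of 3076 bp, so it also covered genes. It held 5522 listed bp and had 9228, 9416, 9116 and 8644 bp covered in WT root control libraries. Under BA it had 11067, 10811, 10747 and 9404 bp, so that 3 BA libraries were above all controls (log2 change 0.32 ± 0.12; limma adjusted p = 0.999). The region of 15337 bp named for ARR4, a type-A regulator gene (chromosome 1 3438026-3453362), held 5738 bp of the root list and 5384 bp of the shoot list. Its midpoint lay in a space of 5206 bp between ARR4 and ZFP5, so the region also covered genes. In shoots it had 5767 and 4938 bp in control and 7385 and 9555 bp under BA (log2 change 0.59 ± 0.14; limma adjusted p = 0.210). In WT roots it had 12522 to 13775 bp in control and 14053 to 15274 bp under BA, and in arr1,10,12 roots 12450 and 12719 bp against 13290 and 12889 bp. BA libraries lay above control libraries in each of the 3 kinds of sample, within changes that did not pass the test.

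Of 80 genes in lists of cytokinin, auxin and organ identity genes, 23 (28.75%) were the nearest gene of a member, beside 5.90% of all protein-coding genes. The lists were chosen with earlier results of these data known. The background was not matched for the length of the space beside a gene, and no test was made of these shares. Auxin transport and response gave 7 of 14 genes, cytokinin response factors and early targets 4 of 8, root identity 3 of 9, type-A regulators 3 of 10, type-B regulators 2 of 7, cytokinin metabolism 3 of 13, receptors and phosphotransfer proteins 1 of 9, and leaf and shoot identity 0 of 11. These 23 genes had 28 members, of which 15 (53.6%) were called between organs, beside 44.6% of all regions and 58.1% of all members, and 0 by genotype or BA. Of the 15, 8 were higher and 7 lower in shoots. Without centring 21 of the 28 (75%) were called, 7 higher and 14 lower, beside 7351 of 16852 regions and 1025 of 1816 members.

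At the top of the pathway, the member beside AHK4, a cytokinin receptor gene, had 2753 to 3049 bp in WT roots and 1959 to 2662 bp in shoots and was not called (log2 change −0.11 ± 0.07; limma adjusted p = 0.200). Beside IPT5 and IPT7, genes of cytokinin synthesis, 3 members were not called either. The member beside CKX3, a cytokinin-degrading enzyme gene (chromosome 5 23042667-23043866), was higher in shoots, with 305 to 414 bp in WT roots and 1081, 1156, 941 and 1190 bp in shoots (log2 change 1.80 ± 0.13; limma adjusted p = 2.08e-07). No root library came near a shoot library there.

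Beside the type-B genes ARR2 and ARR11, the members had 783 to 941 and 393 to 575 bp in WT roots and 628 to 837 and 327 to 383 bp in shoots, and neither was called. All 3 type-A members were lower in shoots, by 0.80 at ARR4, 0.34 at ARR8 and 0.26 on the log2 scale at ARR9 (limma adjusted p = 5.74e-06, 0.00310 and 0.0107). Each of the 3 was wider than its intergenic space, with 15337 bp in 5206, 6819 in 5547 and 7200 in 5339. Their covered lengths therefore include gene sequence. The ARR9 call was lost with the replicate block (limma adjusted p = 0.0622). Without WT shoots BA replicate 1 the log2 change at ARR9 was −0.19. The ARR8 region (chromosome 2 17215731-17222549) had 5633 to 6598 bp in WT roots, 3718 and 3035 bp in control shoots and 4709 and 5106 bp in BA shoots. Members beside the cytokinin response factor genes CRF2 and CRF3, of the AP2/ERF class, were higher in shoots, by 1.17 and 0.80 for the 2 at CRF2 and 1.18 and 0.85 for the 2 at CRF3. The CRF6 member was called higher too, with 253 to 851 bp in WT roots and 568 to 975 bp in shoots. The CRF4 member was called lower in shoots, with 529 to 971 bp in WT roots and 326 to 423 bp in shoots. The CRF4 and CRF6 calls were each lost under at least 1 alternative. At the nearer CRF3 member, of 686 bp, control shoots had 313 and 303 bp and BA shoots 609 and 620 bp, without overlap but not called (log2 change 0.94 ± 0.17; limma adjusted p = 0.0807).

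Auxin genes stood on both sides. The member between IAA2 and its neighbour, 11565 bp wide, had 6600 to 8458 bp in WT roots and 10289 to 11269 bp in shoots (log2 change 0.80 ± 0.08; limma adjusted p = 4.41e-06). Both members beside ARF19, an auxin response factor gene, were lower in shoots, the strictly distal one (chromosome 1 6635816-6638097) with 1446 to 2192 bp in WT roots and 576 to 762 bp in shoots (log2 change −1.31 ± 0.12). The member between IAA3 and IAA17, both genes of Aux/IAA repressors (chromosome 1 1129167-1135017), had 3829, 5021, 4231 and 3988 bp in WT root control libraries and 5791, 5703, 5725 and 5186 bp under BA. Every BA library was above every control library, but the log2 change of 0.51 ± 0.12 did not pass the test over all regions (limma adjusted p = 0.999). In arr1,10,12 roots the same region had 3273 and 3301 bp in control and 3901 and 3561 bp under BA. Among root identity genes, the member 6129 bp from PLT1 was lower in shoots, with 941 to 1156 bp in WT roots and 316 to 419 bp in shoots (log2 change −1.33 ± 0.10; limma adjusted p = 2.60e-07), and those beside PLT2 and SHR were not called.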

How the data were processed

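ATAC-seq peak lists of 16 libraries and 2 lists of differential regions were used. The tools named in the submitters' processing notes were HOMER 4.9.2, deepTools 2.5.2, Bowtie 1.2.0 and SAMtools 1.5, with the TAIR10 build; the notes used here give no role for each. The deposited lists hold chromosome, start and end in bp, with no score or read number, so depth is unknown and its part in a covered length cannot be told apart; each library has its own list. The members and gene lists were chosen with earlier results of these data known.

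Overlapping peaks were merged, and covered bp of each region was summed per library with Python 3.11.15, pandas 2.3.3 and numpy 2.4.6 (figures: matplotlib 3.10.9). Protein-coding genes (27444) came from the RefSeq table of TAIR10.1, without strand, whose positions were checked against the peaks: in 61 of 61 bins of 2 Mb the best offset lay within 100 bp of 0. Log2 covered bp of the regions with a peak in all 16 libraries, with no pseudocount, was centred on each library's median and tested two-sided with limma 3.58.1 in R 4.3.3 (6 group means, Benjamini-Hochberg adjustment). The fit was tested on simulated data with independent libraries. Of 100 regions given a log2 change of 1, it called 92, 91, 92, 67 and 65 in the 5 main comparisons, with 3 to 11 false calls of 16852 regions. These false calls do not measure errors from libraries that deviate together.

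Named are the 10 widest and 10 farthest members, the 5 called members with the largest change in each direction, the 5 widest under each differential list, those beside gene-list genes, those over non-coding genes of classes with 10 or fewer, and 3 on either side of each threshold. Same-numbered control and BA libraries deviated together in WT roots (correlation 0.18 to 0.441 for same numbers, −0.298 to 0.159 for others), so numbers pair them there. In shoots the correlation was 0.376 for same numbers and −0.376 for others, and in arr1,10,12 roots 0.387 and −0.387. With 2 libraries a group these values mirror each other, so they cannot decide whether numbers pair libraries there. Alternatives were other distances and widths, no centring, covered percent, other region sets, a robust fit, the replicate block and leaving out each library. For BA the block was the replicate number within each kind of sample, and for organ and genotype the number shared across kinds. Sequences, motifs and 12 RNA samples were not used here. The result of 1 named member is not reported here.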

Additional observations from a re-analysis of the deposited data

Results flagged for a closer look

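Groups of 4 libraries were examined for covered length at 75 named members and for measures over all members, 160 groups in all. In 17 of the 160, all at named members, 1 library lay far from the other 3 on covered length. Chance marks about 1 group in 20. Where a neighbour is given, it is the median of the 4 libraries. In WT root control libraries, replicate 1 stood out at AT5G39160 with 10995 bp (median 4780), at AT5G28237 with 463 bp (median 410), at AT3G29970 with 352 bp (median 554.5) and at AHK4 with 2753 bp (median 2983). Replicate 2 stood out at AT3G63210 with 11414 bp (median 10082), at IPT7 with 402 bp (median 355.5), at CRF2 with 414 bp (median 357.5) and at the narrower CRF3 member with 359 bp (median 305.5). Replicate 4 stood out at ARF5 with 409 bp (median 504), at the wider CRF3 member with 966 bp (median 690.5) and at GLR1.3 with 2997 bp (median 3127.5). In WT root BA libraries, replicate 1 stood out at AT5G39160 with 11641 bp (median 4139.5). Replicate 3 stood out at IPT5 with 200 bp (median 871.5) and at ROPGEF8 with 2065 bp (median 1835.5). Replicate 4 stood out at IAA3 with 5186 bp (median 5714), at the other IPT7 member with 913 bp (median 601) and at AT3G28690 with 303 bp (median 357.5). At AT5G39160 the library that stood out was replicate 1 in both treatments, and no cause was tested.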

How the results depend on the processing

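The number of members depends on the limits set: it was 3365 at 0.5 kb, 719 at 2 kb, 843 with every edge over 1 kb from a gene, 829 with at least 50% covered in each library, and 1818 to 1872 without 1 library. Among members covered at least 50%, median covered length was 1423.25 and 1380.5 bp in WT roots (control and BA), 1336.5 and 1320.5 bp in shoots and 1337.5 and 1348 bp in arr1,10,12 roots; with peaks of at least 300 bp it was 864.5 bp in control shoots and 993.5 bp in arr1,10,12 BA roots. Without 1 library it was 1164.83 to 1229 and 1094.17 to 1152.67 bp in WT roots, 901 to 940 and 855.5 to 972.5 bp in shoots, and 1002 to 1079 and 1032.5 to 1039 bp in arr1,10,12 roots. Organ calls ranged from 902 to 1045 without 1 library and were 474 among strictly distal members. Genotype calls were 20 with centring on the members' median, 14 among strictly distal members and 17 to 54 without 1 library. BA calls in shoots were 12 without centring, 0 on covered percent, 8 when regions seen in 2 or more libraries were fitted and 14 with centring on the members' median. They were 3 to 5 without 1 root library. Leaving out a shoot library leaves a lone library, which is then assumed to vary like the other groups. The median log2 change of members then took either sign. BA calls without 1 library were 0 in WT roots and 0 to 1 in arr1,10,12 roots. The BA effect differed between shoots and WT roots in 2 members without centring, 1 in the fit of regions seen in 2 or more libraries, 3 with centring on the members' median and 0 to 10 without 1 library, and between arr1,10,12 and WT roots in 0 to 1. Differential regions of at least 300 bp touched 49 members (root list) and 30 (shoot list), and strictly distal members were touched in 28 and 17 cases. With the replicate block, shoot BA calls numbered 8 and the shoot difference 1, and the count of BA calls in WT roots did not change. Genotype calls numbered 73 with a block of another kind, 1 effect per replicate number shared by all kinds of sample. Pairing by number could be seen in WT roots alone, since 2 libraries a group cannot decide it. Of the 61 named members and members over miRNA genes called between organs, the one beside GATL3 turned without centring (log2 0.23 to −0.03), as did 14 that were not called; no genotype or BA call of a named member turned. Among others, those beside EXPA10, DWF4, AT1G55690, ARR9, CRF4 and CRF6 and the 4 called in BA shoots lost their call under at least 1 alternative, with the cause not tested. Groups of 2 libraries and unknown depth limit the BA comparisons in shoots and in the mutant.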
